A study of Mus musculus with 11 samples.

Results

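Mitochondrial ribosomal proteins are described here across RNA-seq libraries of Ly49H+ natural killer (NK) cells, as the 78 genes of 24421 in the count table whose mouse symbol begins with Mrpl or Mrps and a digit, pseudogenes left out. By symbol, 49 belong to the large subunit (Mrpl) and 29 to the small subunit (Mrps). The cells were sorted from the spleens of C57BL/6 mixed bone marrow chimeras that received mouse cytomegalovirus (MCMV), as TCRb- CD3e- NK1.1+ DX5+ Ly49H+ cells. Ly49H is an activating receptor that recognises an MCMV protein. The 4 groups by title were KO D2 (LDHA-deficient, CD45.2, 3 libraries), WT D2 (wild type, CD45.1, 3 libraries), KO D0 (3 libraries) and WT D0 (2 libraries). Cells of both genotypes developed in chimeric hosts with the other genotype, and how Ldha was deleted is not given in the sources used here. Day 2 is the labelled time after infection for all 11 libraries, D0 ones included, so D0 and D2 are kept here as they stand in the titles, and whether D0 cells saw the virus cannot be told. Titles also set the genotype, since the separate genotype entry of WT libraries lists wild type and LDHA-deficient together. Each library came from an individual mouse, per the labels.

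The mitochondrial ribosome makes the few proteins encoded by mitochondrial DNA, all of them subunits of the respiratory chain and ATP synthase. Its own proteins are encoded in the nucleus, made in the cytosol and imported. The large subunit joins amino acids and the small subunit reads the messenger RNA. Many members have bacterial relatives, whereas others are found in mitochondria alone. A few symbols mislead: the products of Mrps18a and Mrps30 sit in the large subunit, and Mrps36 encodes a part of the 2-oxoglutarate dehydrogenase complex and not a ribosomal protein. LDHA, the A subunit of lactate dehydrogenase, interconverts pyruvate and lactate.

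Library totals ran from 19452460 to 27992092 counts, and every one of the 78 genes passed the filter on low counts that kept 13711 genes, with between 48 and 4916 counts per library. Values below are CPM (counts scaled to a common library size, with TMM factors). Ldha averaged 109.6 ± 7.17 CPM in KO D2, 2903 ± 179 CPM in WT D2, 99.4 ± 7.16 CPM in KO D0 and 609.5 ± 66.2 CPM in WT D0 (SD, n = 3, 3, 3 and 2). The 7 NK markers summed to between 8238 and 13028 CPM in every library. The 7 T cell markers summed to at most 30.3 CPM and the 6 B cell markers to at most 56.8 CPM, with 1 of the 6 at 0 throughout both D2 groups. The 7 myeloid markers moved with the day, at 13.15 to 19.995 CPM in KO D2, 14.3 to 18.2 CPM in WT D2, 24.01 to 47.4 CPM in KO D0 and 44.6 to 65.7 CPM in WT D0. The 4 erythroid markers summed to 49.3 to 159 CPM in KO D2, 27.6 to 245 CPM in WT D2, 77.6 to 703 CPM in KO D0 and 151 to 643 CPM in WT D0. The 4 platelet markers summed to 3.13 to 5.29 CPM in KO D2, 2.13 to 3.02 CPM in WT D2, 4.68 to 7.99 CPM in KO D0 and 7.91 to 8.34 CPM in WT D0. The dendritic markers reached 9.53 CPM in KO D2, 20.3 CPM in WT D2, 9.88 CPM in KO D0 and 7.08 CPM in WT D0. The part of these lists in the results was not tested. In bulk libraries such as these, fewer cells of a type and less RNA per cell cannot be told apart.

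The first comparison asks how D2 differed from D0 within each genotype. Most mitochondrial ribosomal protein genes were higher at D2 in both. In KO, 62 of 78 rose and 10 fell, beside 27% of all 13711 genes tested higher and 34.5% lower (edgeR quasi-likelihood test, Benjamini-Hochberg adjusted p under 0.05). In WT, 66 rose and 1 fell, beside 27.5% of all genes higher and 26% lower. The members' median change was 0.89 on the log2 scale in KO and 0.93 in WT, a 1.85-fold and a 1.90-fold higher level, whereas the median over all genes was -0.20 in KO and -0.07 in WT. The large subunit had 39 genes higher and 4 lower of 49 in KO, and 42 higher and 1 lower in WT. The small subunit had 23 higher and 6 lower of 29 in KO, and 24 higher and none lower in WT. In KO, 64 members were higher in every D2 library than in any D0 library (29.2% of all genes) and 9 lower (37.8%). In WT, 67 were higher in this way (33.6%) and 1 lower (34.9%). Under 18 other settings, 57 of the 62 and 56 of the 66 stayed called higher. Of the members, 61 rose in both genotypes, and the heat map by library shows them as rows that pass from red at D2 to blue at D0.

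**Figure D1:**
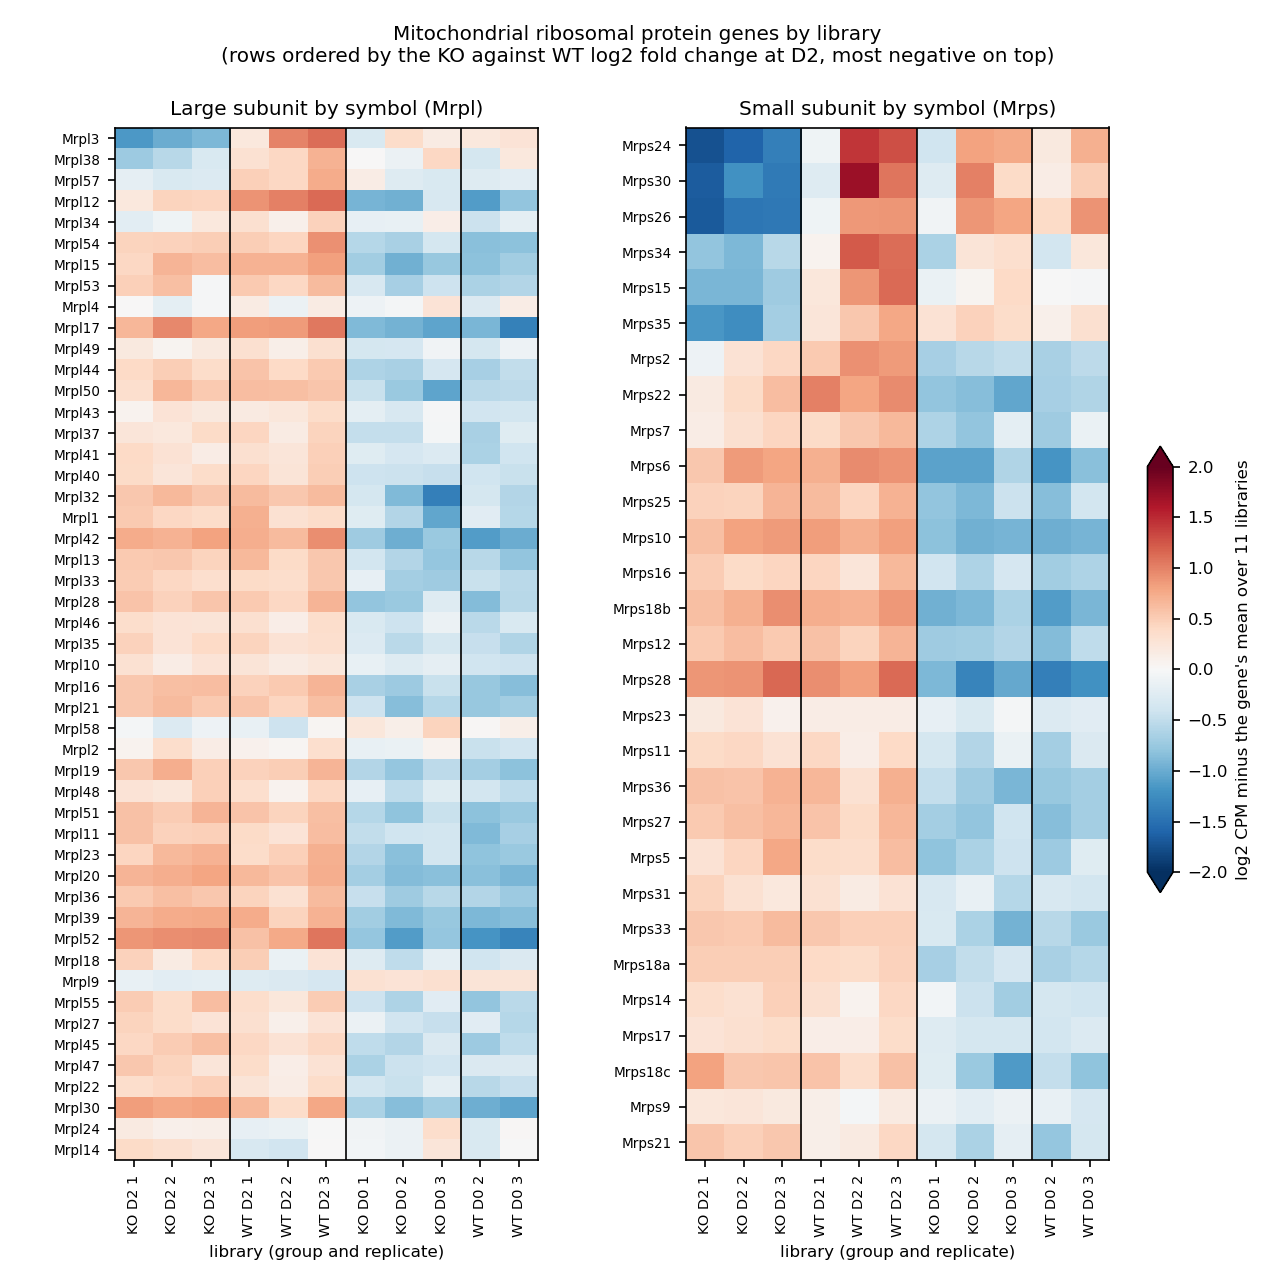
Expression of the 49 Mrpl genes (left) and 29 Mrps genes (right) in 11 libraries, as log2 CPM minus the gene's own mean over the libraries. Columns are libraries grouped as KO D2, WT D2, KO D0 and WT D0, and rows are ordered by the KO against WT log2 fold change at D2. Most rows are red in both D2 groups, and the top rows, among them Mrps24, Mrps30, Mrps26 and Mrpl3, are at their darkest blue in KO D2.

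Among large subunit genes, Mrpl42 (chr10:95480805-95501949, minus strand, GRCm38), a member found in mitochondria alone, measured 120.4, 118 and 126 CPM in KO D2, 120.0, 112 and 138 CPM in WT D2, 44.4, 36.9 and 43.2 CPM in KO D0 and 33.3 and 36.2 CPM in WT D0. Every D2 library was above every D0 library, and the D2 groups overlapped. It rose in KO (log2 fold change 1.55 with SE 0.12, adjusted p = 2.9e-07) and in WT (log2 fold change 1.83 with SE 0.14, adjusted p = 3.6e-07). Mrpl17, a relative of bacterial L17, measured 94.7, 117 and 103 CPM in KO D2, 107, 108 and 125 CPM in WT D2, 32.5, 31.3 and 28.9 CPM in KO D0 and 31.7 and 23.5 CPM in WT D0. Mrpl20, a relative of bacterial L20, measured 109, 113 and 118 CPM in KO D2, 106, 100.5 and 113 CPM in WT D2, 42.6, 37.1 and 38.2 CPM in KO D0 and 37.9 and 36.2 CPM in WT D0. The days did not overlap for either gene, with Mrpl17 changing by 1.76 in KO and 2.04 in WT on the log2 scale, and Mrpl20 by 1.53 in KO and 1.52 in WT (adjusted p from 1.3e-07 in KO to 5.7e-07 in WT for Mrpl20).

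Mrpl52, another mitochondria-specific member, measured 80.4, 83.3 and 84.1 CPM in KO D2, 65.4, 73.5 and 91.4 CPM in WT D2, 25.5, 20.1 and 25.6 CPM in KO D0 and 19.2 and 17.4 CPM in WT D0. Mrpl30, a relative of bacterial L30, measured 120.2, 114 and 117 CPM in KO D2, 105, 86.8 and 115 CPM in WT D2, 43.5, 37.3 and 41.3 CPM in KO D0 and 33.97 and 32.4 CPM in WT D0. Both had all D2 libraries above all D0 libraries. Mrpl52 changed by 1.80 ± 0.15 (SE) in KO and 2.07 ± 0.18 in WT on the log2 scale, and the WT change amounts to a 4.19-fold higher level. Mrpl30 changed by 1.53 ± 0.12 in KO and 1.62 ± 0.14 in WT.

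Among small subunit genes, Mrps28 (chr3:8802146-8923857) showed the largest rise of all 78 in both genotypes. It measured 36.3, 36.7 and 43.3 CPM in KO D2, 37.5, 34.5 and 43.2 CPM in WT D2, 10.6, 7.82 and 9.65 CPM in KO D0 and 7.60 and 8.48 CPM in WT D0, 4.15-fold higher at D2 in KO and 4.78-fold higher in WT. No D0 library came near any D2 library. Mrps10, a relative of bacterial S10, measured 48.3, 55.7 and 57.4 CPM in KO D2, 56.6, 51.9 and 56.1 CPM in WT D2, 17.98, 16.2 and 16.7 CPM in KO D0 and 16.1 and 16.6 CPM in WT D0. Mrps18b, 1 of 3 genes related to bacterial S18, measured 46.6, 50.1 and 58.4 CPM in KO D2, 50.6, 49.6 and 56.05 CPM in WT D2, 15.8, 16.5 and 19.7 CPM in KO D0 and 14.1 and 16.4 CPM in WT D0. For both genes the days were apart in every library, with log2 changes of 1.66 in KO and 1.75 in WT for Mrps10, and 1.58 in KO and 1.77 in WT for Mrps18b.

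Mrps6, a relative of bacterial S6, measured 40.5, 50.3 and 47.996 CPM in KO D2, 45.4, 53.2 and 51.9 CPM in WT D2, 13.3, 13.3 and 18.4 CPM in KO D0 and 12.2 and 15.6 CPM in WT D0. It was 3.10-fold higher at D2 in KO and 3.60-fold higher in WT, but 159 of its exon bases are shared with Slc5a3 on the same strand, so its counts are uncertain. The other genes related to bacterial S18 also rose. Mrps18a measured 67.9, 67.8 and 68.1 CPM in KO D2, 63.7, 62.6 and 66.98 CPM in WT D2, 30.6, 34.6 and 38.2 CPM in KO D0 and 30.96 and 32.7 CPM in WT D0, with log2 changes of 0.98 in KO and 1.02 in WT. Mrps18c measured 48.2, 40.3 and 40.7 CPM in KO D2, 40.9, 35.5 and 41.5 CPM in WT D2, 23.5, 16.5 and 12.7 CPM in KO D0 and 19.9 and 15.8 CPM in WT D0, with log2 changes of 1.29 in KO and 1.14 in WT. No D2 library of either gene was as low as a D0 library. Mrps36, the gene whose product is no ribosomal protein, moved like the ribosomal members, with 51.7, 51.6 and 56.2 CPM in KO D2, 54.7, 42.8 and 56.5 CPM in WT D2, 24.9, 21.1 and 18.4 CPM in KO D0 and 20.4 and 21.6 CPM in WT D0. Its log2 change was 1.30 ± 0.15 in KO and 1.29 ± 0.17 in WT (SE).

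The genes that fell or did not pass the test were few. Mrpl9 (chr3:94443154-94448708), a relative of bacterial L9, was the only member called lower in both genotypes. It measured 67.8, 65.3 and 65.8 CPM in KO D2, 62.9, 61.8 and 59.7 CPM in WT D2, 92.9, 91.1 and 94.01 CPM in KO D0 and 89.4 and 89.8 CPM in WT D0, so that every D2 library was below every D0 library. Its log2 change was -0.48 ± 0.10 in KO (adjusted p = 0.00068) and -0.54 ± 0.10 in WT (adjusted p = 0.00073). Mrpl58, a peptidyl-tRNA hydrolase built into the large subunit, measured 50.6, 42.8 and 48.1 CPM in KO D2, 46.5, 38.9 and 52.9 CPM in WT D2, 60.8, 56.2 and 70.5 CPM in KO D0 and 52.5 and 55.8 CPM in WT D0. It fell in KO (log2 fold change -0.41 with SE 0.14, adjusted p = 0.024), and the WT change of -0.23 did not pass the test (adjusted p = 0.23). The KO call was lost without KO D0 replicate 3 (adjusted p = 0.085), KO D2 replicate 2 (0.095) or KO D2 replicate 3 (0.054), and with RLE scaling (0.099), DESeq2 (0.12) or only the compared groups (0.053). Mrpl4, Mrpl14 and Mrpl24 were called in neither genotype. Mrps9 was called higher in KO (0.37, adjusted p = 0.014), and its WT change was of like size but missed the threshold (0.32, adjusted p = 0.052). The KO call was lost with the GC offset (0.2), a mean of at least 5 CPM (0.093), no filter (0.054) and without KO D0 replicate 2 (0.054). The WT change was called by DESeq2 (0.034) and without WT D2 replicate 2 (0.044).

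Per kilobase of transcript, the most abundant member of the large subunit was Mrpl33, a relative of bacterial L33, and that of the small subunit was Mrps21, a relative of bacterial S21. Mrpl33 measured 86.6, 81.7 and 76.99 CPM in KO D2, 80.01, 78.4 and 89.3 CPM in WT D2, 54.7, 38.1 and 37.6 CPM in KO D0 and 44.8 and 42.2 CPM in WT D0. Mrps21 measured 65.6, 61.8 and 64.9 CPM in KO D2, 48.3, 50.7 and 59.3 CPM in WT D2, 35.2, 28.9 and 39.5 CPM in KO D0 and 26.1 and 35.02 CPM in WT D0. Both had every D2 library above every D0 library. Mrps21 was higher in every KO D2 library than in any WT D2 library, but the difference did not pass the test (log2 fold change 0.28 with SE 0.15, adjusted p = 0.29).

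The second comparison asks how KO differed from WT at D2. Most of the 78 genes showed no called difference, but 12 were lower in KO (15.4%) and 1 was higher (1.28%). These shares were near those of all genes, 14.5% lower and 1.61% higher, so the family as a whole did not stand apart. The median over the members was 0.01 on the log2 scale, the same as over all genes. The small subunit held 8 of the 12 (of 29 genes, 27.6%) and the large subunit 4 (of 49, 8.16%). Counted by where the products sit, with Mrps18a and Mrps30 moved to the large subunit and Mrps36 left out, 7 of 26 small subunit genes and 5 of 51 large subunit genes were lower. The difference between the subunits was not tested. With an offset for the GC content of transcripts, 10 members were lower and 3 higher, beside 8.2% and 5.75% of all genes. In 13 members every KO D2 library was below every WT D2 library (21.3% of all genes), and in 7 every one was above (12.4%).

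Among the lower small subunit genes, 5 hold coding stretches of very high G and C content. The 100 coding bases richest in G and C are printed here for these 5, and for 3 members that were not lower, Mrpl10 with the richest such stretch among them, and Mrpl42 and Mrps10 with poorer ones (GENCODE M21 transcripts, GRCm38, 5′ to 3′, with G and C in capitals). The stretches lie at chr2:130563784-130563883 (plus strand) for Mrps26, chr13:118386793-118386892 (minus strand) for Mrps30, chr6:147042797-147042896 (plus strand) for Mrps35 and chr17:24895284-24895383 (plus strand) for Mrps34, each within 1 coding exon. That of Mrps24 lies at chr11:5707493-5707660 (minus strand) across 2 exons. Those of the other genes lie at chr11:97041607-97044581 (plus strand) across 2 exons for Mrpl10, chr10:95490399-95496824 (minus strand) across 3 exons for Mrpl42 and at chr17:47368908-47372479 (plus strand) across 2 exons for Mrps10.
Mrps26: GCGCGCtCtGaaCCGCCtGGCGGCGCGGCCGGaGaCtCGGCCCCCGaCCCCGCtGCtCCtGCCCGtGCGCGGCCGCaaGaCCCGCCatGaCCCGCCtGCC
Mrps30: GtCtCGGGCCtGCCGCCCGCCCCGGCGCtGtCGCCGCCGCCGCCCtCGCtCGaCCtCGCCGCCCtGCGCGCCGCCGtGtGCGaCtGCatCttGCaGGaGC
Mrps35: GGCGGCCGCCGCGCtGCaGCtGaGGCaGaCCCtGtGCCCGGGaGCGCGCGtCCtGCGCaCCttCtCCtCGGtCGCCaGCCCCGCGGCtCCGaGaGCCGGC
Mrps24: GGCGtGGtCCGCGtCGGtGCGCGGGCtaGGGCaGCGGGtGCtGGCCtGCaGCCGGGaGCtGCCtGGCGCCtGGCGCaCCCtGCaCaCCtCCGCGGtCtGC
Mrps34: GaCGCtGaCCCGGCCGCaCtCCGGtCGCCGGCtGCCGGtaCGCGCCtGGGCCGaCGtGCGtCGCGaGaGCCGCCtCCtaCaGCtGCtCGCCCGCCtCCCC
Mrpl10: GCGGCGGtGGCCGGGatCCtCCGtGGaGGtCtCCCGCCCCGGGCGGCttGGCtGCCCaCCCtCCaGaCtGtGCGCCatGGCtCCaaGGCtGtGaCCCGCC
Mrpl42: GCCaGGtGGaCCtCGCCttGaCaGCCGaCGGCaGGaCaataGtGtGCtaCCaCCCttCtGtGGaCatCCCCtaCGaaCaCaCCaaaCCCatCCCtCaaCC
Mrps10: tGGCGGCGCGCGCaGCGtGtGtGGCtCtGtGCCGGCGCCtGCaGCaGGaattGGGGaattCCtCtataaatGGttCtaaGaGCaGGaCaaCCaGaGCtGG
G and C make up 80% of the Mrps26 and Mrps30 stretches, 79% of that of Mrps35, and 78% of those of Mrps24 and Mrps34, against 75% in Mrpl10, 59% in Mrpl42 and 60% in Mrps10. Mrpl3, which was lower, reached 67%, so the coding stretch does not part all lower members from the rest. The first 5 are the only members whose richest coding stretch reaches 78%, a limit set after the values were seen, and all 5 were lower in KO D2. Of the 1245 genes tested that reach it, 40.6% were.

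Mrps24, a relative of bacterial S3, showed the largest difference. It measured 5.63, 6.21 and 7.33 CPM in KO D2, against 17.9, 50.9 and 46.1 CPM in WT D2, 5.98-fold lower in KO (log2 fold change -2.58 with SE 0.39, adjusted p = 0.0007). The groups did not overlap, and WT D2 replicate 1 was the lowest of the WT libraries. Mrps30, a large subunit protein in structures despite its symbol, measured 2.46, 3.36 and 2.94 CPM in KO D2, against 6.52, 25.7 and 16.4 CPM in WT D2 (log2 fold change -2.47 with SE 0.44, adjusted p = 0.0019). Mrps26, found in mitochondria alone, measured 9.87, 11.7 and 11.8 CPM in KO D2, against 29.8, 58.1 and 58.4 CPM in WT D2 (log2 fold change -2.13 with SE 0.29, adjusted p = 0.0004). For both, every KO library was below every WT library, and WT D2 replicate 1 was again nearest to KO.

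Mrps34, whose loss in mice impairs the stability of the small subunit, measured 7.83, 7.30 and 9.23 CPM in KO D2, against 14.3, 31.8 and 29.6 CPM in WT D2 (log2 fold change -1.64 with SE 0.32, adjusted p = 0.0032). Mrps35, another mitochondria-specific protein, measured 8.44, 7.96 and 11.8 CPM in KO D2, against 22.3, 27.5 and 32.3 CPM in WT D2 (log2 fold change -1.54 with SE 0.19, adjusted p = 0.00021). Mrps15 (chr4:126046928-126055536), a relative of bacterial S15, measured 23.2, 23.3 and 26.8 CPM in KO D2, against 50.98, 81.1 and 95.7 CPM in WT D2, 3.11-fold lower in KO (log2 fold change -1.64 with SE 0.21, adjusted p = 0.00027). None of these 3 overlapped between the genotypes at D2. Mrps2, a relative of bacterial S2, and Mrps22, a gene of human mitochondrial disease, were lower by less. Mrps2 measured 34.8, 45.3 and 49.7 CPM in KO D2, against 53.7, 69.8 and 67.1 CPM in WT D2 (log2 fold change -0.55 with SE 0.15, adjusted p = 0.025), and Mrps22 measured 23.2, 26.9 and 31.6 CPM in KO D2, against 41.5, 35.6 and 39.6 CPM in WT D2 (log2 fold change -0.51 with SE 0.15, adjusted p = 0.03). The call of Mrps2 was lost without KO D2 replicate 1 (adjusted p = 0.13), KO D2 replicate 2 (0.061), WT D2 replicate 2 (0.11) or WT D2 replicate 3 (0.093). That of Mrps22 was lost without KO D2 replicate 1 (0.15), KO D2 replicate 2 (0.094), WT D2 replicate 1 (0.079) or WT D2 replicate 3 (0.089).

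**Figure D2:**
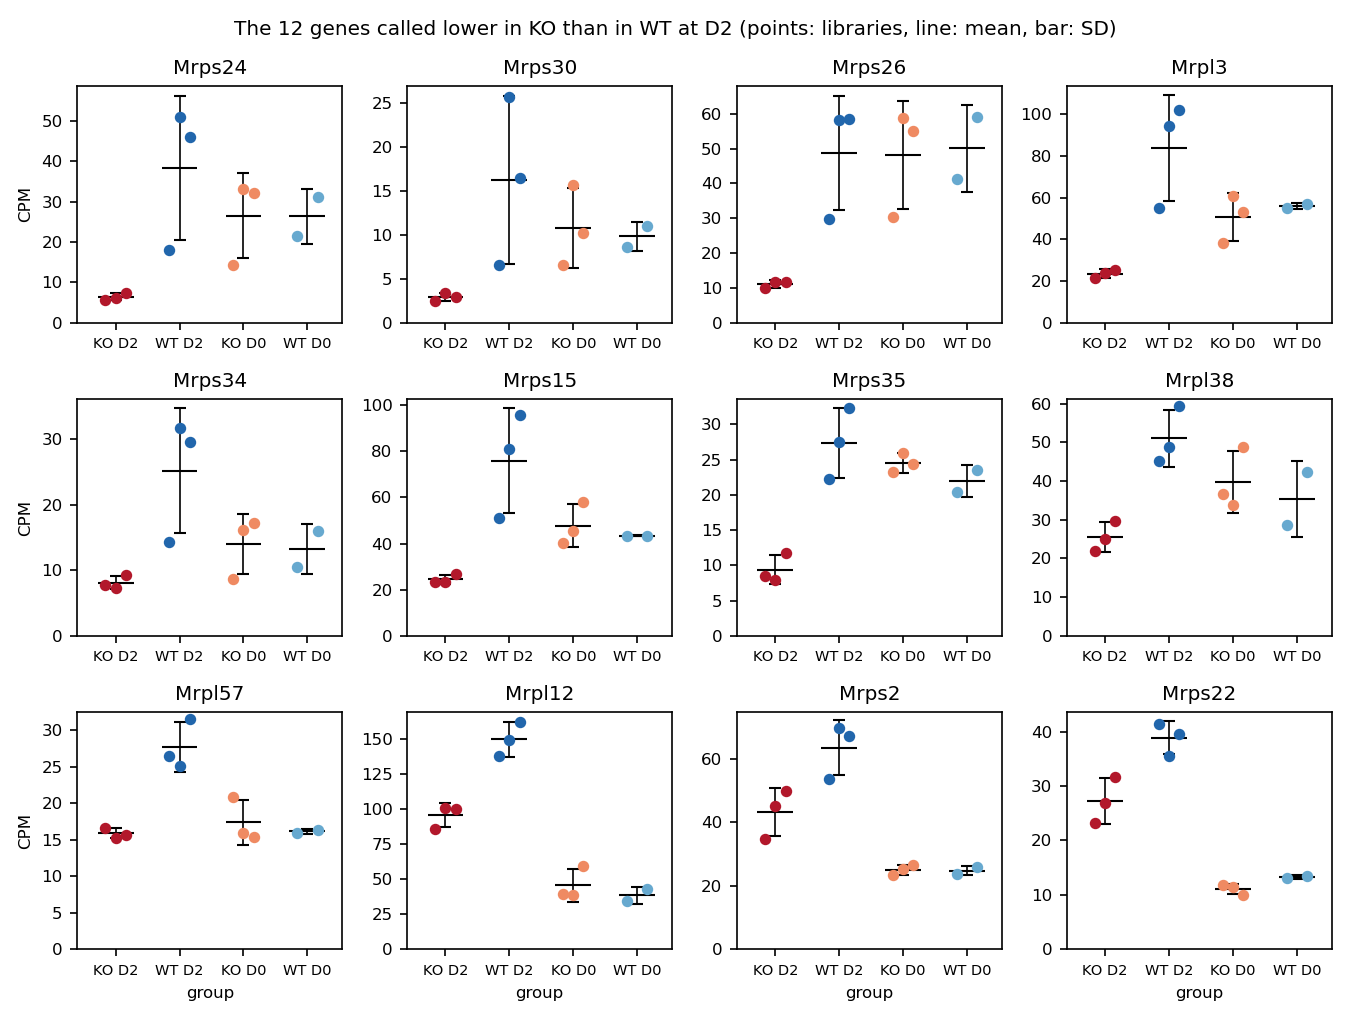
CPM in each library (points) of the 12 mitochondrial ribosomal protein genes called lower in KO than in WT at D2, with the mean (line) and SD (bar) of KO D2, WT D2, KO D0 and WT D0. Axes start at 0 and differ between panels. KO D2 lies below WT D2 in all 12 panels, and below D0 as well for genes such as Mrps26, while Mrpl12, Mrps2 and Mrps22 lie above D0 in both D2 groups.

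Of the large subunit, Mrpl3 (chr9:105053268-105077466), a relative of bacterial L3, showed the largest difference. It measured 21.2, 23.8 and 25.3 CPM in KO D2, against 54.9, 94.3 and 102 CPM in WT D2, 3.57-fold lower in KO (log2 fold change -1.84 with SE 0.23, adjusted p = 0.00021). Mrpl38, a protein of the central protuberance, measured 22.001, 25.02 and 29.7 CPM in KO D2, against 45.1, 48.9 and 59.3 CPM in WT D2 (log2 fold change -0.998 with SE 0.20, adjusted p = 0.0032). Mrpl57, found in mitochondria alone, measured 16.6, 15.3 and 15.7 CPM in KO D2, against 26.4, 25.2 and 31.6 CPM in WT D2 (log2 fold change -0.81 with SE 0.16, adjusted p = 0.0032). The genotypes were apart in every library for all 3. Mrpl12, which forms the stalk of the large subunit and also binds the mitochondrial RNA polymerase, measured 85.6, 101 and 99.8 CPM in KO D2, 138, 149 and 162 CPM in WT D2, 38.99, 38.2 and 59.3 CPM in KO D0 and 34.1 and 42.7 CPM in WT D0. It rose at D2 in both genotypes and stood lower in KO D2 than in WT D2 (log2 fold change -0.65 with SE 0.17, adjusted p = 0.018), a call lost without KO D2 replicate 1 (adjusted p = 0.092), WT D2 replicate 2 (0.05) or WT D2 replicate 3 (0.075).

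Mrpl14 (chr17:45685722-45698495), a relative of bacterial L14 that faces the small subunit, was the only member called higher in KO at D2. It measured 19.2, 18.2 and 17.3 CPM in KO D2, against 11.8, 11.2 and 14.7 CPM in WT D2 (log2 fold change 0.54 with SE 0.17, adjusted p = 0.045), with no overlap. The call was lost without KO D0 replicate 2 (adjusted p = 0.057), any KO D2 library (0.15, 0.11 and 0.087 without replicates 1, 2 and 3), WT D2 replicate 1 (0.11) or WT D2 replicate 2 (0.17). Under 20 other settings, 9 of the 12 lower genes stayed called, namely Mrpl3, Mrpl38, Mrpl57, Mrps15, Mrps24, Mrps26, Mrps30, Mrps34 and Mrps35.

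The 12 lower genes held less of the members' summed CPM in KO D2 than in the other groups. Their summed level was 293 ± 30.6 CPM in KO D2, 647 ± 128 CPM in WT D2, 361 ± 60.7 CPM in KO D0 and 349 ± 46.4 CPM in WT D0. The other 66 genes summed to 4078 ± 61.2 CPM in KO D2, 4028 ± 294 CPM in WT D2, 2252 ± 152 CPM in KO D0 and 2103 ± 98.2 CPM in WT D0. The 12 were chosen for this difference, so the first set of sums is a description. The large subunit summed to 3076 ± 33.0 CPM in KO D2, 3204 ± 237 CPM in WT D2, 1818 ± 130 CPM in KO D0 and 1679 ± 73.0 CPM in WT D0. The small subunit summed to 1296 ± 57.0 CPM in KO D2, 1471 ± 121 CPM in WT D2, 795 ± 41.9 CPM in KO D0 and 772 ± 71.7 CPM in WT D0. For both subunits every D2 library was above every D0 library, as the plot of summed subunits shows. The D2 groups overlapped for the large subunit. For the small subunit they met, at 1357 CPM in the highest KO D2 library and 1364 CPM in the lowest WT D2 library. As an unscaled share of counts the small subunit overlapped, with 0.111%, 0.116% and 0.123% in KO D2, against 0.117%, 0.126% and 0.1397% in WT D2.

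The large to small ratio of summed CPM was 2.45, 2.39 and 2.29 in KO D2, 2.33, 2.06 and 2.15 in WT D2, 2.39, 2.16 and 2.31 in KO D0, and 2.26 and 2.10 in WT D0. The groups overlapped. By position in the structure the mean ratio was 2.69 ± 0.0956 in KO D2, 2.46 ± 0.149 in WT D2, 2.56 ± 0.102 in KO D0 and 2.43 ± 0.126 in WT D0. Without any scaling, the 78 genes held 0.394% ± 0.0113 of counts in KO D2, 0.406% ± 0.0301 in WT D2, 0.301% ± 0.0135 in KO D0 and 0.287% ± 0.00247 in WT D0.

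**Figure D3:**
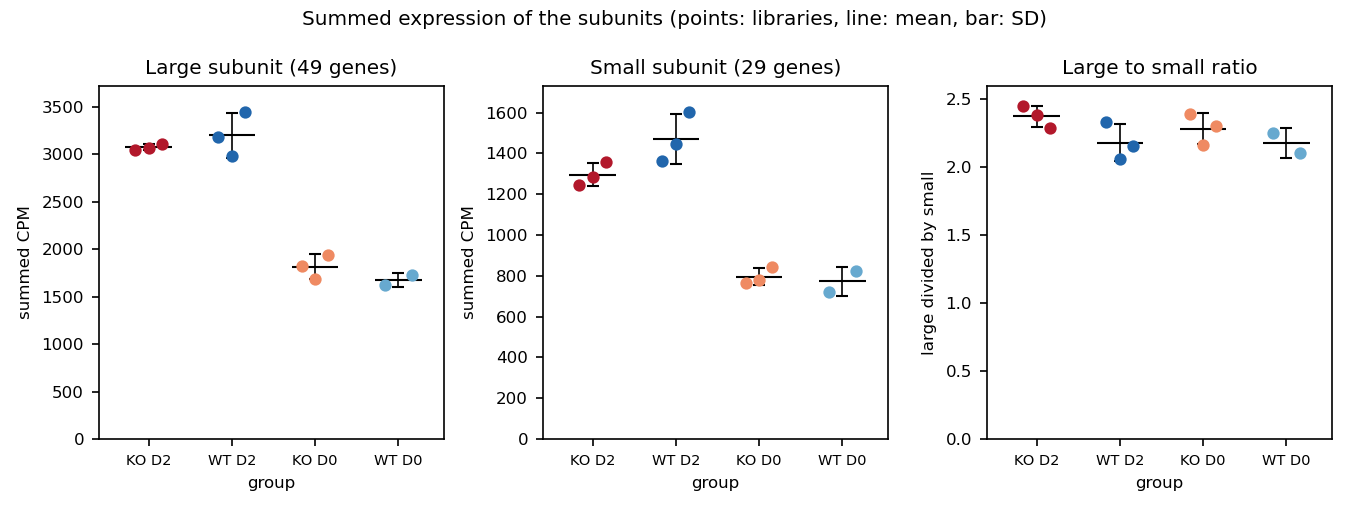
Summed CPM of the 49 Mrpl genes and the 29 Mrps genes, and the ratio of these sums, in KO D2, WT D2, KO D0 and WT D0. Points are libraries, lines means and bars SD, and all axes start at 0. Both sums are higher in every D2 library than in any D0 library, and the ratios of the groups overlap.

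The third comparison asks whether the change between D0 and D2 differed between the genotypes. Across the 78 genes the changes in KO and WT had a Spearman correlation of 0.885, a description in which both changes come from the same scaling. The difference is the KO change minus the WT change, with its sign. Of the 78, 8 had a more negative change in KO (10.3%) and none a more positive one (edgeR, adjusted p under 0.05). Over all genes the shares were 5.72% more negative and 0.124% more positive. Small subunit genes were 5 of the 8, and large subunit genes 3. Mrps15 showed opposite calls, as it fell at D2 in KO (-0.97, adjusted p = 0.0013) and rose in WT (0.81, adjusted p = 0.01), a difference of -1.78 ± 0.31 (SE, adjusted p = 0.012). Its D0 libraries read 40.1, 45.4 and 57.9 CPM in KO D0, against 43.5 and 43.2 CPM in WT D0, between the D2 groups except for 1 KO D0 library above the lowest of WT D2. The WT call of Mrps15 was lost without WT D0 replicate 2 (adjusted p = 0.054), WT D0 replicate 3 (0.056) or WT D2 replicate 3 (0.075).

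Mrps26 had 30.3, 58.8 and 55.1 CPM in KO D0, against 41.3 and 58.9 CPM in WT D0, so its D0 libraries lay with those of WT D2 and above those of KO D2. The difference of change was -2.07 ± 0.43 (adjusted p = 0.021). Mrps35 had 23.2, 25.96 and 24.4 CPM in KO D0, against 20.4 and 23.6 CPM in WT D0, above every KO D2 library as well, with a difference of -1.70 ± 0.28 (adjusted p = 0.0093). Mrps24 had 14.3, 33.1 and 32.1 CPM in KO D0, against 21.6 and 31.1 CPM in WT D0, with a difference of -2.59 ± 0.57 (adjusted p = 0.025). Mrps30 had 6.55, 15.6 and 10.2 CPM in KO D0, against 8.66 and 11.01 CPM in WT D0, with a difference of -2.60 ± 0.64 (adjusted p = 0.034). These 4 genes fell at D2 in KO, with log2 changes of -2.11 for Mrps26, -2.05 for Mrps24, -1.88 for Mrps30 and -1.38 for Mrps35, and in WT no change passed the test. With the GC offset the KO changes were smaller, at -1.30 for Mrps26, -1.31 for Mrps24, -1.07 for Mrps30 and -0.67 for Mrps35, and stayed called. The WT changes of Mrps24 and Mrps30 were called higher with the replicate block across days (0.77 with adjusted p = 0.017, and 0.88 with adjusted p = 0.021) and without WT D2 replicate 1 (0.88 with adjusted p = 0.039, and 1.10 with adjusted p = 0.02).

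**Figure D4:**
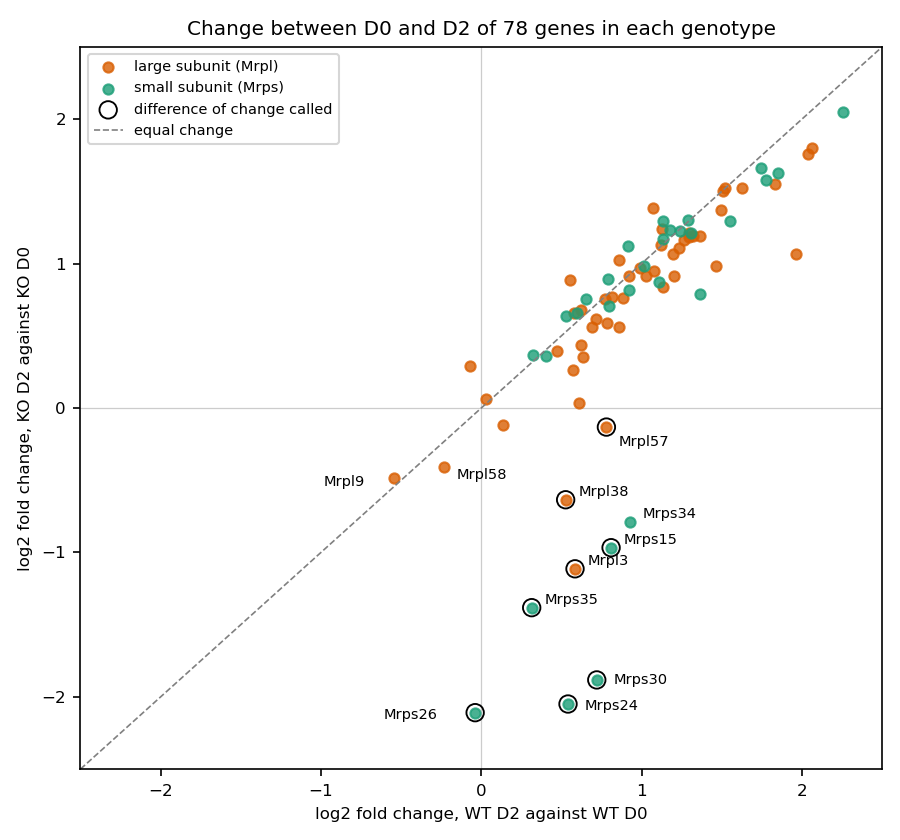
Log2 fold change of D2 against D0 in KO (vertical axis) and in WT (horizontal axis) for the 78 genes, large subunit in orange and small subunit in green. The dashed line marks equal change, and black rings mark the 8 genes whose difference of change was called. Most genes follow the line in the upper right, and the ringed genes lie below it.

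In the large subunit, Mrpl3 had 38.3, 60.96 and 52.99 CPM in KO D0, against 54.8 and 56.97 CPM in WT D0, and its difference of change was -1.70 ± 0.33 (adjusted p = 0.018). Mrpl38 had 36.6, 33.8 and 48.9 CPM in KO D0, against 28.5 and 42.4 CPM in WT D0, with a difference of -1.16 ± 0.29 (adjusted p = 0.038). Mrpl57 had 20.9, 15.9 and 15.3 CPM in KO D0, against 15.9 and 16.4 CPM in WT D0, with a difference of -0.91 ± 0.24 (adjusted p = 0.042). Mrpl3 and Mrpl38 fell at D2 in KO and were not called in WT, whereas Mrpl57 rose in WT and was not called in KO. The WT changes were above 0 (0.58 for Mrpl3 and 0.53 for Mrpl38). They were called for Mrpl3 with the GC offset (0.70, adjusted p = 0.0034), with the replicate number as a block across days (0.0015), and when KO D0 replicate 1 (0.035) or WT D2 replicate 1 (0.0038) was left out. For Mrpl38 they were called with the GC offset (0.036), with that block (0.0016), and without KO D0 replicate 3 (0.036), WT D0 replicate 3 (0.021) or WT D2 replicate 1 (0.047). Mrps34 was called lower at D2 in KO (adjusted p = 0.047) and higher in WT (adjusted p = 0.042), and the difference missed the threshold (adjusted p = 0.055). It was called with the replicate block within day (0.0044) or across days (0.0023), the block with the GC offset (0.0087), DESeq2 (0.013), a mean of at least 5 CPM (0.042), and without KO D0 replicate 1 (0.012) or WT D2 replicate 1 (0.0065). The KO call of Mrps34 was lost without KO D0 replicate 2 (adjusted p = 0.14), KO D0 replicate 3 (0.15) or any KO D2 library (0.065 to 0.13), and with DESeq2 (0.06), RLE scaling (0.077) or no filter (0.055). With the GC offset the KO change was -0.15 (adjusted p = 0.63). Its WT call was lost without WT D0 replicate 2 (0.26), WT D2 replicate 2 (0.13), WT D2 replicate 3 (0.15), any KO D2 library (0.053 to 0.055) or KO D0 replicate 2 (0.051). The KO call of Mrpl38 was lost without KO D0 replicate 3 (adjusted p = 0.056) or KO D2 replicate 1 (0.058), and that of Mrpl3 with an offset for GC content (0.098).

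These 8 calls depended on single libraries. The count was 2 without KO D0 replicate 2 (1.34%), KO D2 replicate 1 (1.14%) or WT D2 replicate 3 (0.824%). It was 3 without KO D2 replicate 2 (1.45%) or WT D2 replicate 2 (2%), 4 without KO D2 replicate 3 (2.33%) and 5 without KO D0 replicate 3 (3.71%). Without KO D0 replicate 1 (9.84%) or WT D2 replicate 1 (10.3%) it was 10. Brackets give the share of all genes with a more negative change in that fit, which moved as well, from 5.72% with all libraries. Without WT D0 replicate 2, which leaves 1 WT D0 library, the differences ran from -0.89 for Mrpl57 to -2.44 for Mrps30. A block on the replicate number within each day was added after the data were seen. With it, 12 members had a more negative change in KO (beside 14.6% of all genes in that fit). In 1, Mrpl32, the change was more positive (4.51% of all genes).

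At D0 no member was called between KO and WT by edgeR or by DESeq2 (0.0948% of all genes were called higher and 0.0583% lower by edgeR). By edgeR, 3 of the 78 had an unadjusted p under 0.05, beside 597 of all 13711 genes tested. Those 3 were large subunit genes, Mrpl2, Mrpl11 and Mrpl52. In 14 members every KO D0 library was above every WT D0 library (10.6% of all genes), and in 2 every one was below (5.91%). Mrpl11, a relative of bacterial L11, had the smallest p of the large subunit, with 20.6, 21.9 and 22.5 CPM in KO D0, against 15.6 and 18.3 CPM in WT D0, not overlapping (log2 fold change 0.35 with SE 0.15, adjusted p = 1). Mrps22 had the smallest of the small subunit, with 11.9, 11.4 and 10.02 CPM in KO D0, against 13.03 and 13.5 CPM in WT D0 (log2 fold change -0.26 with SE 0.17, adjusted p = 1). The log2 fold change was above 0 in 63 of 78 members, with a median of 0.12, and the median over all genes was 0.02. With the replicate block, Mrpl32 was called lower in KO D0 (-0.66, adjusted p = 0.039).

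GC content moved with the D2 results. The highest GC content of any 100-base window of the transcript had a median of 70% over the members. Above it, 12 of 38 members were lower and 1 higher in KO at D2, and at or under it 0 of 40 were either. Among all genes with a transcript, 25.5% of those above 70% were lower and 1.24% of the others. The 12 lower members had peaks from 74 to 80%. High GC did not go with a lower level in every member: Mrps7 (82%, its exons shared with a gene on the opposite strand), Mrpl40 (81%), Mrpl23 and Mrpl54 (78% each) were not called. Across genes, peak GC and the log2 fold change had a Spearman correlation of -0.535 in the 78 members and -0.451 in 12819 genes, a description in which all points share the libraries.

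The same lean appeared across whole libraries. The median log2 ratio to the mean library of genes with a peak of 75% or more, minus that of genes under 65%, was -0.59, -0.49 and -0.46 in KO D2, -0.17, 0.26 and 0.16 in WT D2, -0.02, 0.36 and 0.47 in KO D0, and 0.08 and 0.32 in WT D0. KO D2 lay below the other groups, and replicate 1 was the lowest within each of the 3 groups that hold one. WT D2 replicate 1 was also the lowest WT D2 library for 10 of the 12 lower members (83.3%), for 11 of the other 66 and for 82.9% of the 1986 genes lower in KO at D2. Over all genes tested it was the lowest for 37.3%. WT D2 replicate 2 was the lowest for 52 of the other 66 members. An offset for peak GC left 10 members lower, all but Mrps2 and Mrps22, and made 3 higher (Mrpl14, Mrpl23 and Mrpl40), the last of these having been below 0 without it (-0.06). With it the log2 fold change was -1.94 for Mrps24, -1.76 for Mrps30, -1.45 for Mrps26 and -1.16 for Mrpl3. With the offset 1 of the 8 differences of change, Mrps15, stayed called (-1.40, adjusted p = 0.041). The others kept their direction, among them Mrps24 at -1.93, Mrps30 at -1.87, Mrps26 at -1.38 and Mrpl38 at -0.98, with adjusted p from 0.051 to 0.22. With the replicate block within day added to the offset, all of the 8 but Mrpl57 were called (adjusted p from 0.00084 to 0.0037). The part of GC content in these differences was not tested further.

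**Figure D5:**
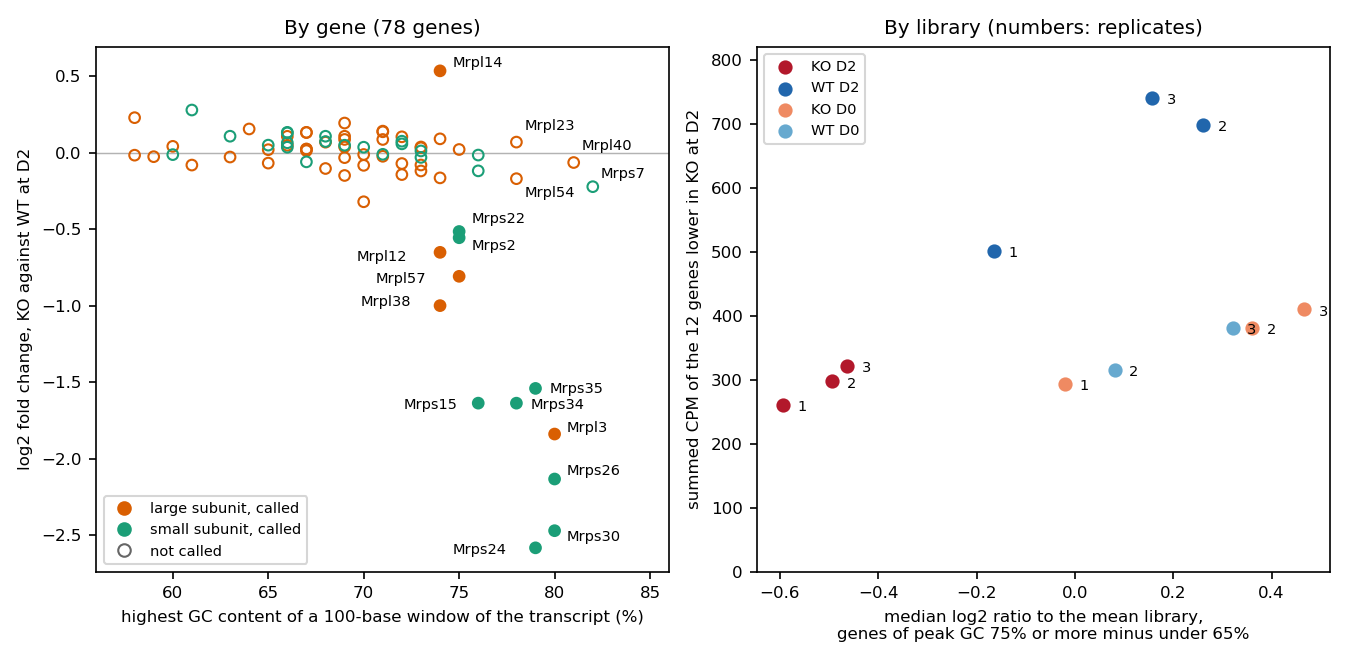
Left, KO against WT log2 fold change at D2 of the 78 genes against the highest GC content of a 100-base window of their transcripts, with filled points called and open points not. Right, summed CPM of the 12 lower genes in each library against the library's own GC lean (median log2 ratio of genes of peak GC 75% or more minus under 65%). All filled points lie at 74% or more, and the 3 KO D2 libraries lie farthest left.

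Promoters of these genes often hold the letters of factors known for nuclear genes of mitochondria. RefSeq (GRCm38.p6) gave 75 windows of 300 bases around the starts of 69 of the 78 genes, searched on both strands. The NRF1 letters, GCGCA and GCGC with any base between them, were in 17.3% of the windows, beside 4.60% of all 32851 windows and 9.44% of those of genes tested here. CCGGAAG (ETS factors such as GABP) was in 34.7%, beside 8.86% and 16.9%. AAGATGGC (YY1) was in 16.0%, beside 2.75% and 4.24%, and CACGTG (E-box, bound by MYC and MAX among others) in 9.33%, beside 7.15% and 9.64%. Shown are the 250 bases before the start of Mrpl12, at chr11:120484387-120484636 (plus strand), and of Mrpl17, at chr7:105811088-105811337 (minus strand), genes that rose at D2 in both genotypes, with the matches in capitals (NRF1 in both, ETS also in Mrpl17).
Mrpl12: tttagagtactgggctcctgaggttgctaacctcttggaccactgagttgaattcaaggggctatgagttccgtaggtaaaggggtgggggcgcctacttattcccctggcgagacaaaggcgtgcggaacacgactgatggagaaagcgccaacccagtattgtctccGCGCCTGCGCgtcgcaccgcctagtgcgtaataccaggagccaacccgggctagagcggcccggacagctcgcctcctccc
Mrpl17: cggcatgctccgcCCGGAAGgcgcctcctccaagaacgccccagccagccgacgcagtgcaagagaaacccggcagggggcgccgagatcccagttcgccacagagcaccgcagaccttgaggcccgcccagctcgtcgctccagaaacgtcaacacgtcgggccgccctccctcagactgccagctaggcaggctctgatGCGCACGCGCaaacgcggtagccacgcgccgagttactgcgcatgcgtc
The same stretch of Mrps6, Mrpl42 and Mrps18b, which also rose at D2, held none of the 4 motifs. The stretch given for Mrps10 lay inside the gene, past its start, and is left out. Of the genes lower in KO at D2, 9 had windows, with the NRF1 letters in 3 and CCGGAAG in 4, beside 13 and 26 of all 69 genes. In the 250 bases before the start, Mrps26, which was lower, held an ETS match, and Mrps24, also lower, held none. A match describes the letters alone. Of the factors, Nrf1 (-0.07 in KO and 0.18 in WT) and Yy1 (-0.26 in KO and 0.06 in WT) were not called between the days, nor between KO and WT at D2 (adjusted p = 0.22 and 0.1). Myc, the most abundant of the regulators, averaged 1170.3 ± 217 CPM in KO D2, 1364 ± 188 CPM in WT D2, 137 ± 14.3 CPM in KO D0 and 134 ± 0.85 CPM in WT D0, and rose at D2 in KO (log2 fold change 3.10 with SE 0.16, adjusted p = 1.3e-08) and in WT (log2 fold change 3.35 with SE 0.19, adjusted p = 4.1e-08). Gabpa, the DNA-binding subunit of GABP, was lower in KO at D2, with 68.5 ± 1.93 CPM in KO D2 and 122 ± 9.29 CPM in WT D2 (log2 fold change -0.83 with SE 0.12, adjusted p = 0.00047). Its partner Gabpb1 was also lower (log2 fold change -0.67 with SE 0.14, adjusted p = 0.0047). Between the days, Gabpa rose in WT (0.81, adjusted p = 0.00022) and was not called in KO (0.22, adjusted p = 0.12). Gabpb1 rose at D2 in KO (0.63, adjusted p = 0.0016) and in WT (1.18, adjusted p = 4.4e-05). Of 22 regulators of mitochondrial gene expression, 6 were lower and none higher in KO at D2 (27.3%, beside 14.5% of all genes). At D2 7 rose and 7 fell in KO (31.8% each, beside 27% and 34.5% of all genes), and 8 rose and 5 fell in WT (36.4% and 22.7%, beside 27.5% and 26%).

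Genes of mitochondrial translation with other symbols were read from the same fit. Of 5 further subunits of the mitochondrial ribosome, 3 rose at D2 in KO and 4 in WT, led by Chchd1 (1.63 in KO and 1.69 in WT) and Ptcd3 (1.24 in KO and 1.25 in WT). Gadd45gip1, whose product sits in the large subunit, was lower in KO D2 than in WT D2 (log2 fold change -1.59 with SE 0.24, adjusted p = 0.00062). Of 17 translation factors, 7 rose and 4 fell at D2 in KO (41.2% and 23.5%), and 8 rose and 2 fell in WT (47.1% and 11.8%). In KO against WT at D2, 4 were lower (23.5%, beside 14.5% of all genes). Mrrf, which recycles ribosomes, rose in both genotypes (1.81 in KO and 1.74 in WT), as did the elongation factor Gfm1 (1.31 in KO and 1.41 in WT). Pdf, which removes the formyl group from new mitochondrial proteins, was lower in KO D2, with 1.19 ± 0.127 CPM in KO D2 and 11.1 ± 6.26 CPM in WT D2 (log2 fold change -3.22 with SE 0.52, adjusted p = 0.00096). Lrpprc, which keeps mitochondrial messenger RNA stable, was lower as well (log2 fold change -1.36 with SE 0.27, adjusted p = 0.0032).

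Of 32 assembly factors, 11 rose and 11 fell at D2 in KO (34.4% each), near the shares of all genes given above. In WT, 11 rose and 5 fell (34.4% and 15.6%), and 10 were lower and none higher in KO at D2 (31.2%, beside 14.5% of all genes). At D2 in KO, Mtg1, a GTPase of large subunit assembly, rose (1.14), and Mrm1, which methylates the large ribosomal RNA, fell (-2.45). Ddx28, an RNA helicase for the large subunit, averaged 10.1 ± 0.34 CPM in KO D2 and 40.2 ± 10.2 CPM in WT D2 (log2 fold change -1.99 with SE 0.25, adjusted p = 0.00021). Malsu1, which binds the product of MRPL14 in human cells, averaged 2.17 ± 0.42 CPM in KO D2 and 12.6 ± 4.92 CPM in WT D2 (log2 fold change -2.53 with SE 0.36, adjusted p = 0.00044). The peak GC content of the transcript was 76% for Ddx28, 77% for Malsu1, and 80% for Pdf, Gadd45gip1, Gabpa and Gabpb1, and its part in their differences was not tested.

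Most genes of the cytosolic ribosome, which makes all other proteins of the cell, were also higher at D2. Of 85 such genes tested, 77 rose and 3 fell at D2 in KO, with a median of 0.92, beside 27% and 34.5% of all genes. In WT, 80 rose and 2 fell, with a median of 1.24, beside 27.5% and 26% of all genes. In KO against WT at D2, 2 were lower (2.35%), Rps2 (-1.11, adjusted p = 0.00012) and Rpl13 (-0.87, adjusted p = 0.00077), and none higher. Over all genes 14.5% were lower, and of the 78 mitochondrial ones 12 were (15.4%). Whether the families differ was not tested. At D0 none was called in KO against WT by edgeR, but 82 of the 85 were above 0, with a median of 0.34. An unadjusted p under 0.05 was seen in 56, beside 597 of all 13711 genes tested. In 58, every KO D0 library was above every WT D0 library (10.6% of all genes).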

How the data were processed

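For each Entrez gene ID the authors deposited a whole-number count in 11 libraries. Per the labels' protocols, RNA was amplified with the SMART-seq V4 kit by PCR. Per the submitters' processing notes, the tools were Salmon 0.13.1 (an entry also reads 13.1), DESeq2 1.22.2, Trimmomatic 0.36 and bcl2fastq 2.20.0.422, and the build was mm10. Each tool's role is not given in the sources used here, so the deposited counts may be rounded estimates, and reads may be split unevenly between similar genes. Strand is not stated, and 10 members share exon bases with another tested gene (Mrpl13, Mrpl19, Mrpl21, Mrpl24, Mrpl27, Mrpl47, Mrpl49, Mrps7 and Mrps25 on the opposite strand, Mrps6 on the same), so their counts are uncertain.

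RefSeq symbols (GRCm38.p6) matched 24387 of 24421 IDs. The test was edgeR's quasi-likelihood test (version 4.0.16, run under R 4.3.3) with robust dispersions, TMM scaling and filterByExpr, with all 11 libraries in 1 fit of 4 group means and 7 residual degrees of freedom. Every count of calls uses 0.05 as the limit on p after Benjamini-Hochberg adjustment over the genes tested in that fit. These were 13711 genes in the main fit, 18860 with no filter and 9358 at a mean of at least 5 CPM. With DESeq2 they ran from 11907 to 18854 between comparisons. Standard errors (SE) were derived from the fit, as the absolute log2 fold change divided by the square root of the test's F statistic. CPM are given as library values or mean ± SD, and 3 counts correspond to between 0.107 and 0.154 CPM, for counting error only. Peak GC is the highest in 100 bases of a GENCODE M21 transcript, known for 12819 tested genes. A run of the fit on simulated counts is not reported here and bears on none of the calls.

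The members, lists and settings were chosen with earlier results of these data known. Values in every library are given for the called members with the 5 smallest p per subunit and direction (KO against WT at D2, and D2 against D0 in WT) or the 3 smallest (other comparisons, or the single smallest where none was called), the most abundant member of each subunit per length, and members of unusual placement or function. Of other lists, genes were named from the called ones with the 2 smallest p per direction in a comparison, and the most abundant. The others named, such as Mrps34, Mrps2, Mrpl32, Nrf1, Yy1, Rps2 and Rpl13, were chosen after their values were seen. The symbol Mtrfr of the translation factors was not matched. Mitochondrially encoded genes were not analysed here.

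Other settings were RLE scaling, DESeq2 1.42.0, no filter, a mean of at least 5 CPM, only the compared groups, a GC offset, replicate blocks and leaving out each library. Same-numbered KO and WT libraries had correlated deviations at D2 (0.217, 0.198 and 0.114), so the numbers may pair them there. At D0 only 2 numbers are shared (0.0275 and 0.410). Same-numbered KO D0 and WT D2 libraries were correlated too (0.218, 0.152 and 0.201), so the number may mark something other than a host. The source of the pairing is this check. The labels give numbers only and do not say that a number marks 1 host.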

Additional observations from a re-analysis of the deposited data

Results flagged for a closer look

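For 8 genes the change between D0 and D2 differed between KO and WT by a test of the difference itself (edgeR, adjusted over 13711 genes). On the log2 scale the KO change minus the WT change was -1.70 for Mrpl3, -1.16 for Mrpl38, -0.91 for Mrpl57, -1.78 for Mrps15, -2.59 for Mrps24, -2.07 for Mrps26, -2.60 for Mrps30 and -1.70 for Mrps35. None of the 8 was called under every one of 19 other settings.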

How the results depend on the processing

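Members higher at D2 ran from 58 to 63 in KO and from 59 to 70 in WT over 18 other settings, and members lower in KO at D2 from 9 to 13 over 20. Members lower at D2 in KO ran from 7 to 10. Over all genes, the share higher at D2 ran from 18.4% to 30.9% in KO and from 18.3% to 32% in WT in these fits. The share lower in KO at D2 ran from 8.2% to 19.8%, and that lower at D2 in KO from 25.5% to 41.7%. No called member turned direction, but members not called did: Mrpl40 was 0.59 against -0.06 in KO at D2 with the GC offset (adjusted p = 0.022), and with the replicate block within day and GC offset Mrpl40 (0.61), Mrps7 (0.46, against -0.22) and Mrps16 (0.35, against -0.01) were called higher. In the difference of change Mrpl40 (0.71, against -0.05) and Mrps7 (0.60, against -0.10) were called above 0 with that block and offset. Members higher in KO at D2, 1 as reported (1.61% of all genes), were 0 with no filter (0.864%) and 3 with the GC offset (5.75%). They were 6 with the replicate block within day and GC offset (12.3%). Without single libraries of the groups of 3 they were 0 to 1 (0.737% to 2.06%). Members called at D0, none as reported, were 1 lower with the replicate block within day (1.17% of all genes). With that block and the GC offset they were 1 higher and 1 lower (0.423% and 1.73%). Members lower at D2 in WT were 2, not 1, at a mean of at least 5 CPM (32.4% of all genes). Members with a more negative change in KO, 8 as reported (5.72% of all genes), were 5 with no filter (2.8%) and 1 with the GC offset (0.897%). They were 12 with any replicate block (8.81% to 14.6%). Without single libraries of the groups of 3 they were 2 to 10 (0.824% to 10.3%). Those with a more positive change, none as reported, were 1 with the replicate block within day (4.51% of all genes) and 3 with the GC offset added (7.44%). The within-day blocks for the difference of change were added after the data were seen, and comparing only its own groups is no alternative, as it uses all. The cause of these moves was not tested. Scaling moved the median of all genes for D2 against D0 in KO by 0.11 (RLE and DESeq2) and 0.14 (GC offset). With 2 libraries in WT D0, leaving 1 out assumes that it varies like the other groups.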
